A study of Rattus norvegicus with 6 samples.

Results

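The miR-183, miR-96, and miR-182 cluster is a group of 3 neighbouring miRNA genes that are read as one transcript, and its miRNAs are best known from sensory cells. Its members were taken as every rat name of the miRNA count table that belongs to miR-183, miR-96, or miR-182, with both arms of a hairpin included. This gave 5 of the 910 names in the table, of which 763 were rat names. The 5 were rno-miR-182, rno-miR-96-5p, rno-miR-96-3p, rno-miR-183-5p, and rno-miR-183-3p. Small RNA was sequenced from the lens capsules of Sprague Dawley rat pups, in 3 control libraries and 3 Na2SeO3 libraries, each from the lens of a different rat. The pups were 8 days old when used for the model. The control group (labelled WT) was given saline, and the Na2SeO3 group (labelled Model) was given sodium selenite at 20 μmol/kg under the skin of the neck. Both were injected on days 3, 5, and 7, and lenses were taken on day 15 of the experiment. Whether the injection days are counted from birth or from the start of the experiment is not clear from the sources used here. Selenite given to young rats is a chemical model of nuclear cataract, so the comparison asks which miRNAs differ between clear and clouded lenses. Pups were put into the groups at random, and nothing in the labels ties a control pup to a Na2SeO3 pup.

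A miRNA gene is copied into a primary transcript that folds into a hairpin. The enzyme Drosha cuts the hairpin out, Dicer removes its loop, and 1 of the 2 strands is kept in Argonaute as the guide, while the other strand is mostly lost. Because miR-183, miR-96, and miR-182 come from the same primary transcript, each full copy of it holds all of their hairpins. The primary transcript was not measured here, and the source of differences in their levels was not tested. The cluster is strongly expressed in photoreceptors, hair cells of the inner ear, and olfactory neurons. Changes in the seed of miR-96 cause progressive hearing loss in people and mice, loss of the cluster in mice leads to retinal degeneration, and in the mouse retina its level follows the light. The seed, bases 2 to 8, is the stretch by which a miRNA recognises its targets.

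The mature sequences of the guide miRNAs are shown because their near-identical seeds define the family. All 5 members were found in the RefSeq annotation of assembly GRCr8. Seeds are in capitals.
rno-miR-182: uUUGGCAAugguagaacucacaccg
rno-miR-96-5p: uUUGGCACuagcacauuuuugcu
rno-miR-183-5p: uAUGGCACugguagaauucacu

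Positions are counted from 1 at the 5′ end. From miR-96-5p to miR-182 the seed differs by C8A, and from miR-96-5p to miR-183-5p it differs by U2A. From miR-182 to miR-183-5p it differs by U2A and A8C. Bases 3 to 7, UGGCA, are shared by all 3, and of the 693 mature names in the RefSeq table only these 3 (0.433%) hold those letters at those positions. No other name with a RefSeq sequence had the seed of any of the 3. Names of other species in the count table, such as mmu-miR-182-5p, were not compared. Over the whole sequence, seed included, miR-182 and miR-183-5p are identical at 18 of 22 positions (81.8%), and 2 of the 4 differences lie in the seed. The 4 differences exceed a single mismatch, and how the counting treated mismatches is not given in the sources used here. miR-96-5p shares 12 of 23 positions (52.2%) with miR-182 and 13 of 22 (59.1%) with miR-183-5p.

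The hairpins show where each miRNA is cut from. The mature arms that RefSeq lists are in capitals.
Mir183: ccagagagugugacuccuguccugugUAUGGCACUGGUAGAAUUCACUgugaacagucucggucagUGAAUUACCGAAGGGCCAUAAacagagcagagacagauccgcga
Mir96: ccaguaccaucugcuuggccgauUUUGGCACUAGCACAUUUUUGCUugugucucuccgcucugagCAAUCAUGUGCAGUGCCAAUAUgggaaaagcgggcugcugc
Mir182: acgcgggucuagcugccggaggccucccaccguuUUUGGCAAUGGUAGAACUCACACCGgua

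In GRCr8 the hairpins lie on the minus strand, Mir183 at chr4:59756044-59756153, Mir96 at chr4:59755841-59755946, and Mir182 at chr4:59752246-59752307. The order along the transcript is therefore Mir183, Mir96, and Mir182. The run is intergenic, between the protein-coding genes Nrf1 and Ube2h. Mir183 and Mir96 have 2 mature arms listed and Mir182 has 1. The assembly behind the count table is not given in the sources used here, and these positions were used only to place the genes.

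The counts summed to between 1806596 and 2829903 in the control libraries and between 663096 and 968151 in the Na2SeO3 libraries. Counts on miRNA names amounted to 25.6% to 39.7% of all raw reads in the control group and 11.4% to 13.0% in the Na2SeO3 group. A count of 3, the smallest taken as measurable, corresponded to 1.04 to 1.94 CPM (the count scaled to a fixed library size, after TMM) in the control libraries and 2.72 to 4.36 CPM in the Na2SeO3 libraries. The libraries carry no molecular identifiers, so reads can repeat a molecule, and such limits and all intervals on counts cover counting error only. Of the 4 miRNAs fixed as lens markers, miR-184 and miR-26a-5p were among the 7 most abundant names. miR-204-5p averaged 15228 ± 1598 and miR-205 1313 ± 32.0 CPM (SD, n = 3) in the control group.

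miR-182 was the third most abundant miRNA of the lens capsule by mean CPM over the 6 libraries, miR-96-5p was the fifth, and miR-183-5p was the sixth. By group mean, miR-182 was at place 3 in both groups, miR-96-5p at place 5 in the controls and 4 after Na2SeO3, and miR-183-5p at place 7 in the controls and 5 after Na2SeO3. The level of rno-miR-182 was 69734, 97880, and 102344 CPM in control libraries 1 to 3 and 110456, 91860, and 109128 CPM in Na2SeO3 libraries 1 to 3. Control library 1 was the lowest, and the ranges of the groups overlapped. The level of rno-miR-96-5p was 39815, 36361, and 56844 CPM in control libraries 1 to 3 and 38842, 54998, and 37759 CPM in Na2SeO3 libraries 1 to 3. In each group 1 library stood above the other two, control library 3 and Na2SeO3 library 2. The level of rno-miR-183-5p was 35205, 39458, and 36365 CPM in control libraries 1 to 3 and 46254, 39299, and 42673 CPM in Na2SeO3 libraries 1 to 3. Its ranges overlapped by a small margin, with control library 2 just above Na2SeO3 library 2.

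**Figure D1:**
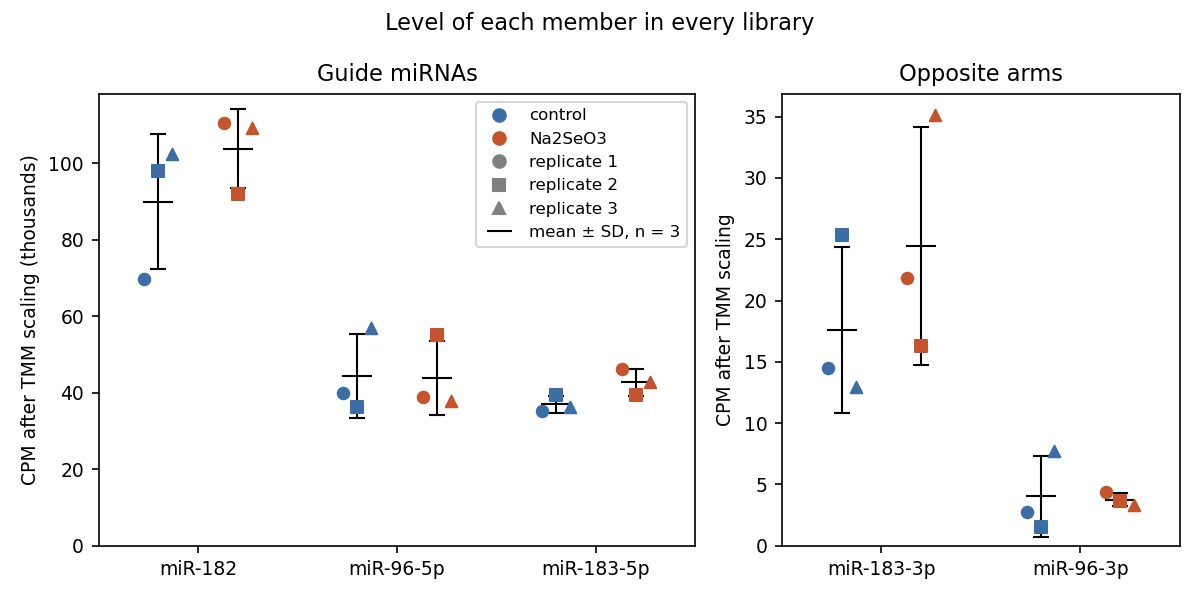
CPM after TMM scaling of the guide miRNAs (left) and of the opposite arms (right) in every library, with points for libraries, horizontal lines for group means, and bars for SD (n = 3 per group). The groups overlap in all 5 members, and the opposite arms lie about 3 orders of magnitude or more below the guides.

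The members together took a large share of each library. The 5 names made up 14.8%, 16.2%, and 16.7% of all counts in control libraries 1 to 3 and 20.3%, 21.2%, and 19.7% in Na2SeO3 libraries 1 to 3. The widest 95% Wilson interval, that of Na2SeO3 library 1, ran from 20.2% to 20.4%. The mean share was 15.9% ± 0.989 in the controls and 20.4% ± 0.778 after Na2SeO3 (SD, n = 3 each). The ranges were separate, and the exact two-sided permutation test gave p = 0.1, which 3 libraries against 3 cannot go below. One count in 4.91 fell on the cluster in the Na2SeO3 group, against one in 6.30 in the control group. A share of counts also moves when other miRNAs do. After TMM scaling, which assumes that the bulk of the names keep their level, the cluster summed to 171357 ± 25484 CPM in the controls and 190451 ± 4759 CPM after Na2SeO3 (SD, n = 3 each), and the ranges overlapped (exact permutation test, p = 0.3). Per raw read of the library, the direction was opposite. The cluster took 4.81% ± 0.929 of the raw reads in the controls and 2.46% ± 0.258 after Na2SeO3 (SD, n = 3 each), again without overlap (exact permutation test, p = 0.1).

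**Figure D2:**
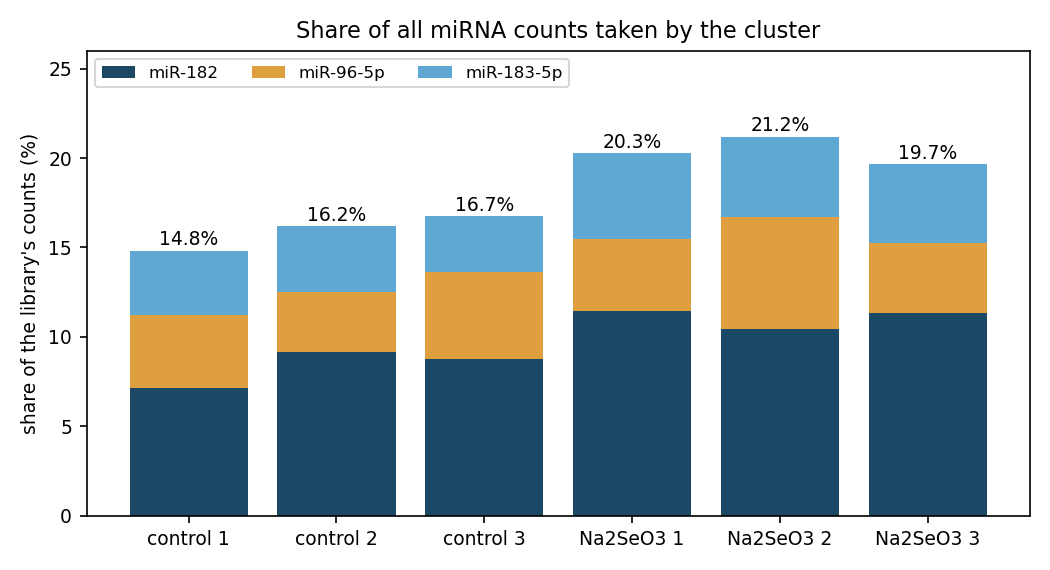
Share of each library's miRNA counts (%) taken by miR-182, miR-96-5p, and miR-183-5p, stacked, with the sum over all members above each bar. The control bars reach 14.8% to 16.7% and the Na2SeO3 bars 19.7% to 21.2%.

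Within the cluster the proportions did not depend on any scaling, since they are ratios of counts in the same library. miR-182 was the most abundant of the 3 guides in all 6 libraries and held 52.3% ± 4.09 of the cluster's counts in the controls and 54.5% ± 4.47 after Na2SeO3 (SD, n = 3 each). miR-96-5p made up 25.8% ± 4.32 and 23.1% ± 5.57, and miR-183-5p 21.9% ± 2.95 and 22.4% ± 1.27 (SD, n = 3 each), in the same order of groups. The second place changed between libraries. miR-96-5p lay above miR-183-5p in control libraries 1 and 3 and in Na2SeO3 library 2, and below it in the other 3 libraries, so these neighbours in the order were not separated beyond their spread.

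For each count of miR-183-5p control libraries 1 to 3 held 1.98, 2.48, and 2.81 counts of miR-182, and Na2SeO3 libraries 1 to 3 held 2.39, 2.34, and 2.56. The Na2SeO3 values all fell inside the control range, and the control libraries were the more variable, at 2.43 ± 0.420 against 2.43 ± 0.115 (SD, n = 3 each). With the counts of miR-183-5p as library size, edgeR's quasi-likelihood test gave a log2 change of this ratio of 0.00 between the groups (95% interval -0.32 to 0.32, adjusted p = 0.992). In that fit 30.3% of all names tested passed an adjusted p-value of 0.05. The ratio of miR-96-5p to miR-183-5p was 1.13, 0.922, and 1.56 for control libraries 1 to 3, against 0.840, 1.40, and 0.885 for Na2SeO3 libraries 1 to 3. The same libraries stood out as in the levels of miR-96-5p. Its log2 change was -0.21 (95% interval -0.72 to 0.30, adjusted p = 0.513, edgeR). The ratio of miR-182 to miR-96-5p ran from 1.67 to 2.89, with both ends in the Na2SeO3 group, and its log2 change was 0.25 (95% interval -0.41 to 0.90, adjusted p = 0.711, edgeR, with miR-96-5p as library size and 18.5% of names passing). None of the 3 proportions differed beyond the spread between libraries, and the intervals leave room for changes of up to the stated bounds. The counts compare reads, and how well each of the sequences enters a library was not measured.

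**Figure D3:**
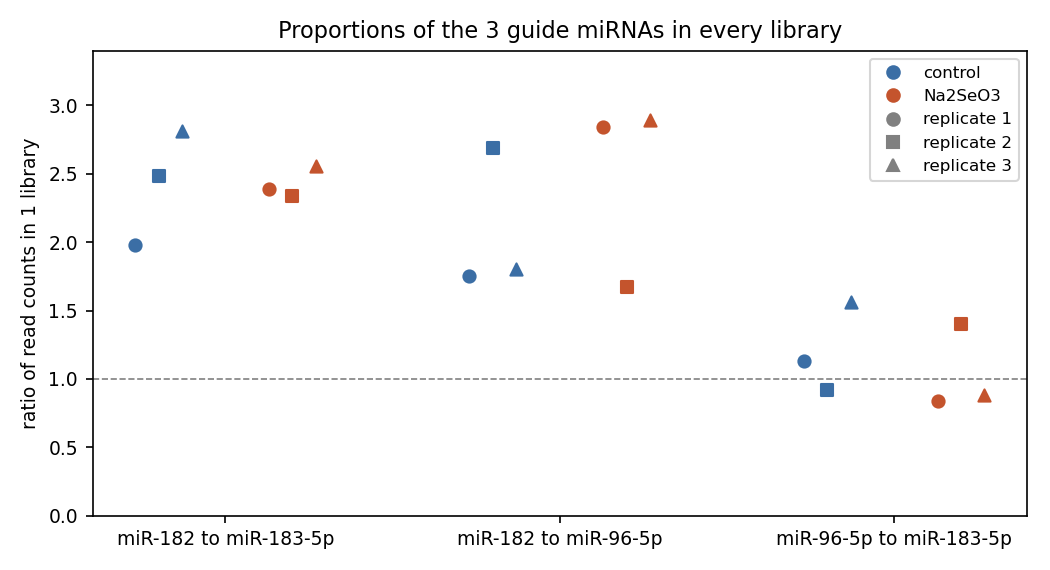
Ratio of read counts between pairs of guide miRNAs in each library, with control in blue, Na2SeO3 in orange, and marker shape for the replicate number. The miR-182 to miR-183-5p ratio runs from 1.98 to 2.81, and the miR-96-5p to miR-183-5p ratio falls on both sides of the dashed line at 1 in either group.

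The opposite arms were rare. miR-183-3p was counted 42, 49, and 20 times in control libraries 1 to 3 and 15, 18, and 32 times in Na2SeO3 libraries 1 to 3. There were between 1213 and 2812 counts of the 5p arm for each count of the 3p arm. The lowest ratio was that of Na2SeO3 library 3 and the highest that of control library 3, and the groups overlapped. On the log2 scale the ratio averaged 11.10 ± 0.44 and 10.84 ± 0.53 (SD, n = 3 each) in the control and Na2SeO3 groups (exact permutation test, p = 0.5). miR-96-3p was counted 8, 3, and 12 times in control libraries 1 to 3 and 3, 4, and 3 times in Na2SeO3 libraries 1 to 3, at or near the limit of what these libraries can show. Its 5p arm was counted between 7326 and 23455 times as often, with both ends in the control group. The log2 ratios, 13.72 ± 0.84 and 13.50 ± 0.38 (SD, n = 3 each), rested on those few counts (exact permutation test, p = 0.8). No second arm of miR-182 is listed in the table.

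A further hairpin, Mir3553, is annotated on the opposite strand over Mir183. Its mature sequence contains the exact reverse complement of all 22 bases of miR-183-5p, so it shows whether reads of the other strand were present.
rno-miR-3553: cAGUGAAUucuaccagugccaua

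miR-3553 had 0 counts in all 6 libraries, against 348556 counts of miR-183-5p over the same libraries. A count of 0 allows up to 1.04 to 1.94 CPM in the control libraries and 2.72 to 4.36 CPM in the Na2SeO3 libraries.

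Between the groups, none of the cluster's miRNAs passed edgeR's test. DEmiRNAs were names with adjusted p below 0.05 whose log2 fold change exceeded 1 in size. Of the 5 members, 4 had enough counts to be tested, with miR-96-3p below the filter. Of the 4, 0 were DEmiRNAs, where 16.4% of the 341 names tested were (11.4% higher and 4.99% lower in the Na2SeO3 group), and 0 passed the adjusted p-value alone, where 34.6% of all names did (edgeR's quasi-likelihood test). At an unadjusted p-value of 0.05 the count was also 0, against 44.3% of all names. By adjusted p it was 0 with DESeq2 (32.3% of all names) and 0 with limma-voom (35.5%). The ranges of the groups did not separate in any of the 4, whereas 46.3% of all names had groups that did not overlap. The mean level of miR-182 was 89986 ± 17680 CPM in the controls and 103814 ± 10374 CPM after Na2SeO3 (SD, n = 3 each). The difference was 1.15-fold, or 0.21 on the log2 scale (standard error 0.15, 95% interval -0.12 to 0.53, adjusted p = 0.330, edgeR). The mean level of miR-183-5p was 37010 ± 2198 and 42742 ± 3478 CPM (SD, n = 3 each), also 1.15-fold apart, or 0.21 on the log2 scale (standard error 0.13, 95% interval -0.06 to 0.48, adjusted p = 0.236, edgeR). For miR-96-5p, with 44340 ± 10965 and 43866 ± 9656 CPM (SD, n = 3 each), the log2 difference was -0.02 (standard error 0.19, 95% interval -0.42 to 0.39, adjusted p = 0.952, edgeR). The upper and lower bounds of all 3 guides lay inside the threshold of 1. miR-183-3p had a wider interval, with 0.47 on the log2 scale (95% interval -0.30 to 1.23, adjusted p = 0.347, edgeR) that reaches past the threshold. The p-values measure the spread between these libraries, each from 1 rat.

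**Figure D4:**
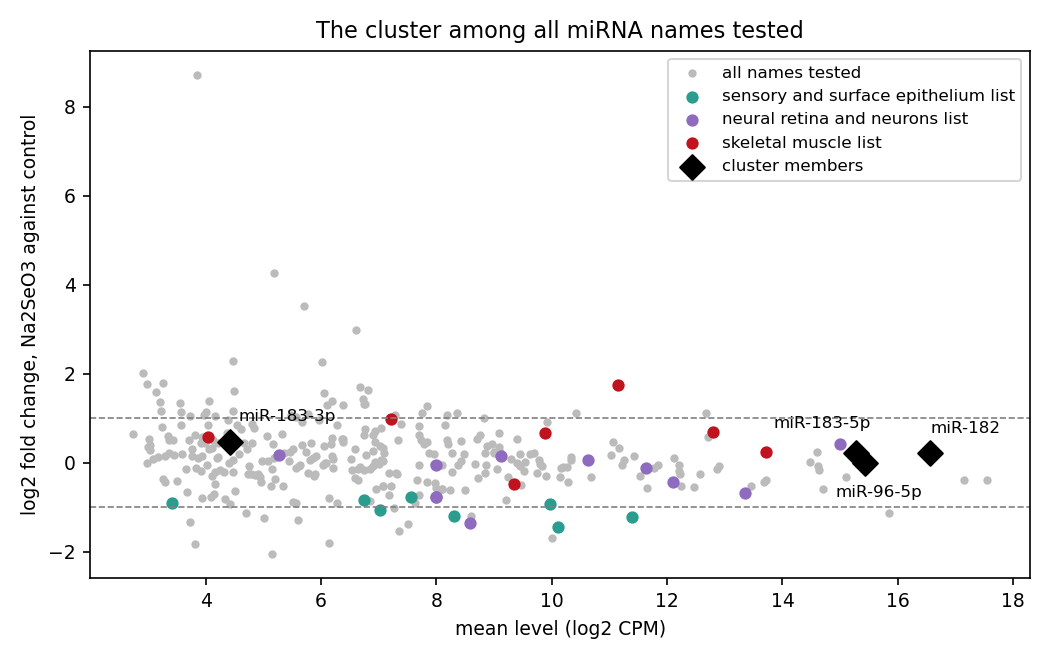
Log2 fold change (Na2SeO3 against control) against mean level (log2 CPM) for the 341 names tested, with cluster members as black diamonds, 3 lists of other miRNAs in colour, and dashed lines at a log2 fold change of 1 and -1. The guide miRNAs sit at the abundant end close to 0, with log2 fold changes from -0.02 to 0.21.

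The fold changes of the guides depended on how the libraries were scaled. With library size as the only scale, miR-182 was at a log2 fold change of 0.41 (adjusted p = 0.0161) and miR-183-5p at 0.40 (adjusted p = 0.0187), both below the 0.05 limit on adjusted p (edgeR), and miR-96-5p was at 0.20 (adjusted p = 0.411). With raw reads as library size, all 3 were lower in the Na2SeO3 group, at -0.90 for miR-182 (adjusted p = 0.00121), -0.95 for miR-183-5p (adjusted p = 0.00157), and -1.11 for miR-96-5p (adjusted p = 2.06e-04, edgeR). The median of all names moved with the scale, from 0.08 with TMM to 0.27 with library size only and -1.07 with raw reads. Set against that median, miR-182 was higher by 0.13 to 0.17 and miR-183-5p by 0.11 to 0.14 over the 6 scalings, whereas miR-96-5p was at -0.10 to -0.05. In the order of all fold changes the 3 guides stood between the 44.3 and the 61.6 percentile over the 6 scalings. A scaling moves all names by about the same amount, so the nearness of these values to each other is built in and is not a sign of stability. Whether the middle of all names kept its level or fell cannot be told from counts of miRNAs alone.

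**Figure D5:**
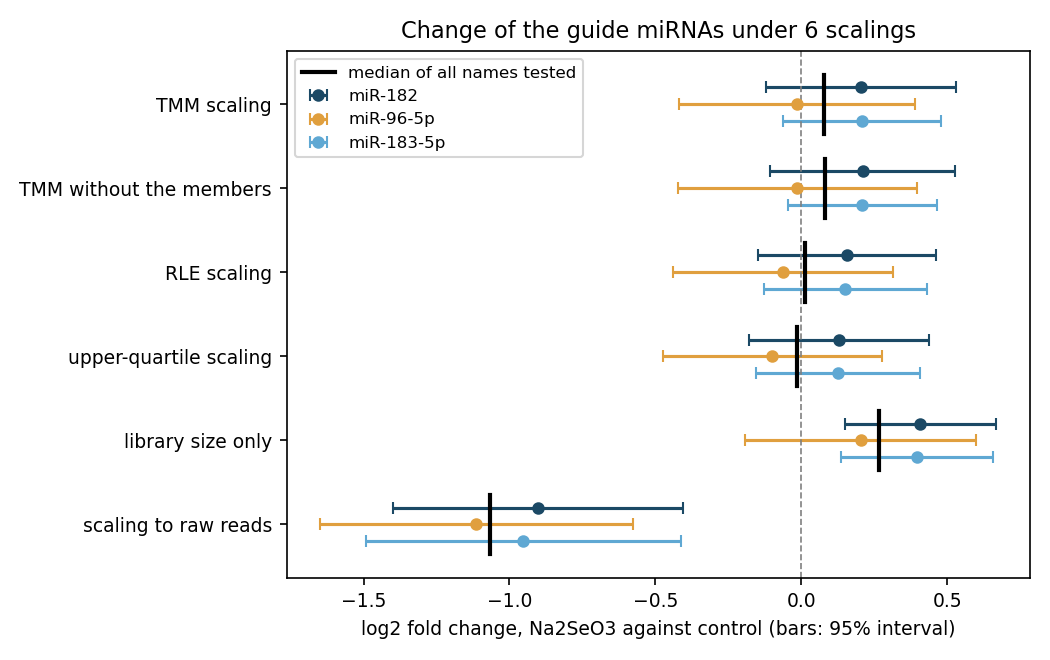
Log2 fold change of the 3 guide miRNAs under 6 scalings of the libraries, with 95% intervals, and the median of all names tested as a black line. The values move with the scaling from about 0.4 to -1.11, and the median of all names moves with them.

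The guides were also compared by their spread between the animals of a group, with 3 libraries each and no test. Among the 20 most abundant names, the coefficient of variation of miR-96-5p ranked first in the control group (24.7%) and second in the Na2SeO3 group (22.0%). The medians were 12.7% and 10.2%. miR-183-5p, from the same transcript, had 5.94% and 8.14%, and miR-182 had 19.6% and 9.99%. The values for miR-96-5p rested on control library 3 and Na2SeO3 library 2, since the other libraries of each group lay close together. Likeness was measured by the Pearson correlation of log2 CPM over the 6 libraries, among 340 other names. High values are common over so few libraries, and the libraries share group and scaling. Closest to miR-96-5p was miR-326-3p (r = 0.971), a name of low level, with 13.1, 13.4, and 23.9 CPM for control libraries 1 to 3 and 14.5, 25.4, and 12.1 CPM for Na2SeO3 libraries 1 to 3. It was high in the same libraries, control 3 and Na2SeO3 2, which follows from the choice of names by this correlation. miR-455-5p (r = 0.931) and miR-32-5p (r = 0.923) came next, and both were highest in control library 3 and, of the Na2SeO3 group, in library 2. The cluster partners of miR-96-5p were not close to it, with r = -0.01 for miR-182 and r = -0.41 for miR-183-5p.

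The nearest to miR-182 were miR-128-3p (r = 0.916), miR-217-5p (r = 0.908), and miR-1839-5p (r = 0.900). miR-128-3p is a miRNA of neurons and averaged 1542 ± 58.0 and 1612 ± 56.7 CPM (SD, n = 3 each). The nearest to miR-183-5p were miR-383-5p (r = 0.9997), miR-382-5p (r = 0.983), and miR-485-5p (r = 0.980). Of these, miR-382-5p was an up-regulated DEmiRNA (log2 fold change 1.27, adjusted p = 0.00167, edgeR), and miR-485-5p passed the adjusted p-value at 0.64 (adjusted p = 0.0447, edgeR). miR-182 and miR-183-5p correlated at r = 0.744, which put miR-183-5p at place 21 among the 340 names ordered by likeness to miR-182, and miR-182 at place 51 among those ordered by likeness to miR-183-5p.

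The other miRNAs next to the guides in the order of abundance were miR-99a-5p, miR-184, and miR-26a-5p. miR-99a-5p, just above miR-182, was higher than it in all 6 libraries and passed an adjusted p-value of 0.05 at -0.39 on the log2 scale (adjusted p = 0.0141, edgeR). miR-184, an abundant miRNA of lens and cornea just below miR-182, went from 81388 ± 6580 to 37222 ± 3191 CPM (SD, n = 3 each; log2 fold change -1.13, adjusted p = 3.48e-05, edgeR). For each count of miR-184 control libraries 1 to 3 held 0.945, 1.14, and 1.21 counts of miR-182, and Na2SeO3 libraries 1 to 3 held 2.70, 2.55, and 3.13. In the control group these 2 miRNAs were within their spread of each other, and in the Na2SeO3 group miR-182 was the higher in all 3 libraries. miR-26a-5p, just below miR-183-5p, lay above it in all 3 control libraries and below it in all 3 Na2SeO3 libraries, at -0.33 on the log2 scale (adjusted p = 0.0478, edgeR). The calls of miR-99a-5p and miR-26a-5p were lost with library size only, at -0.19 and -0.13 (adjusted p = 0.214 and 0.421, edgeR). They were also lost without a filter, though at larger changes of -0.47 and -0.41 (adjusted p = 0.0596 and 0.0615, edgeR).

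Other miRNAs that mark sensory, epithelial, muscle, and blood cells were read beside the cluster. In bulk RNA, fewer cells of a type and less RNA per cell cannot be told apart. The list of light-regulated retinal miRNAs, miR-204 and miR-211 with both arms, had 4 of 4 names tested. Of these, 0 had an adjusted p below 0.05 (edgeR), where 34.6% of all names did. The median log2 fold change was -0.25 (0.08 for all names). miR-204-5p, the most abundant of them, was at -0.40 (adjusted p = 0.0869, edgeR). It was the 1 name with an unadjusted p below 0.05, where 44.3% of all names had one. By adjusted p, 1 name was lower with DESeq2 and 0 with limma-voom, where 32.3% and 35.5% of all names passed in either direction. With raw reads as library size, where 62.8% of all names passed, all 4 were lower, with a median of -1.40 against -1.07 for all names. Of 21 names for neural retina and neurons, 12 were tested, 1 rose and 5 fell, where 34.6% of all names passed in either direction, and the median was -0.08. With raw reads as library size, where 62.8% of all names passed in either direction, 0 of the 12 were higher and 11 lower, with a median of -1.25 against -1.07 for all names. miR-9a-5p, a miRNA of neural progenitors and Müller glia, was the one that rose, at 0.43 on the log2 scale (adjusted p = 0.0478, edgeR). Its groups overlapped, and 0 names of the list rose with RLE or upper-quartile scaling, with DESeq2, or with limma-voom. miR-124-3p, the most specific of the list for neurons, stood at 3792, 2880, and 3189 CPM for control libraries 1 to 3 and at 2139, 3683, and 3268 CPM for Na2SeO3 libraries 1 to 3, with overlapping groups. Of the 5 that fell, miR-7b changed most (log2 fold change -1.36, adjusted p = 8.47e-05, edgeR), and miR-129-1-3p and miR-129-2-3p, which have identical counts and are 1 measurement, were both among them. The summed level of the list was 45864 to 59308 CPM in the control group and 49541 to 59789 CPM in the Na2SeO3 group.

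In the list of sensory and surface epithelium, the miR-200 family with miR-141, miR-429, miR-203, and miR-205, the tested names were lower after Na2SeO3. miR-141-3p was at -0.91 and did not pass (adjusted p = 0.155, edgeR). miR-203b-3p had too few counts to be tested and went the other way, from 2.57 ± 0.598 to 5.16 ± 1.24 CPM (SD, n = 3 each). Of 14 names, 8 were tested, 7 passed an adjusted p-value of 0.05 with a lower level in the Na2SeO3 group, 0 passed with a higher one, where 34.6% of all names passed in either direction, and the median log2 fold change was -0.99. miR-203a-3p, a miRNA of stratified epithelium, went from 3730 ± 214 to 1609 ± 59.7 CPM, and miR-200b-3p from 1612 ± 187 to 589 ± 50.5 CPM (SD, n = 3 each). The same 7 of 8 count was found with RLE, upper-quartile, and library-size scaling, and 8 of 8 with raw reads (62.8% of all names). The list summed to 7518 to 7757 CPM in the control libraries and 3299 to 3456 CPM in the Na2SeO3 libraries. In skeletal muscle, 7 of 16 names were tested and 4 rose, where 34.6% of all names passed in either direction, with a median of 0.68. miR-206-3p, which is specific to muscle, rose from 1039 ± 130 to 3488 ± 818 CPM (SD, n = 3 each). That list summed to 17644 to 22431 CPM and 26961 to 31613 CPM in the control and Na2SeO3 libraries. miR-499-5p of the same list was at -0.49 (adjusted p = 0.0680, edgeR), and 1 name of the list was lower with RLE or upper-quartile scaling and with DESeq2. With raw reads as library size 0 names were higher and 2 lower, and the median was -0.44 against -1.07 for all names. In the glial list, 3 of 6 names were tested and 1, miR-219a-2-3p of oligodendrocytes, rose. It was counted 7, 13, and 5 times in control libraries 1 to 3, which is few. In Na2SeO3 libraries 1 to 3 it was counted 59, 81, and 69 times, and it passed the filter only through these. miR-338-3p of that list was at -0.93 (adjusted p = 0.0519, edgeR), and 1 name was lower with RLE or upper-quartile scaling and with limma-voom. The erythroid list had 3 of 5 names tested and 1, miR-486, that rose, so that this share and that of the glial list were near the 34.6% of all names, while miR-451-5p, the most specific of them to red cells, lay between 117 and 140 CPM in the control group and between 113 and 162 CPM in the Na2SeO3 group. The lens list, miR-184, miR-204, miR-26a, and miR-205, had 5 of 6 names tested and 3 that fell, where 34.6% of all names passed with TMM. With library size only 2 fell, where 126 of 341 names passed. Also 2 fell without a filter (89 of 725 names) and with the replicate block (97 of 341 names). The count was 4 with DESeq2 (32.3% of all names) and 5 with raw reads (62.8%). With TMM the median was -0.40. The list summed to 128450 to 143659 CPM in the control group and 74776 to 87530 CPM in the Na2SeO3 group. With raw reads as library size the glial median went from 0.25 to -0.90 and the erythroid from 0.41 to -0.77, as the median of all names went from 0.08 to -1.07. Of the glial names 1 was then higher and 2 lower, and of the erythroid names 0 were higher and 1 lower. miR-204 and miR-205 each stand in a second list besides the lens list. The part of these cells in the level of the cluster was not tested.

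Along chromosome 4 of GRCr8, the nearest miRNA genes before Mir182 were Mir129-1, Mir592, and Mir489, and those after Mir183 were Mir3556a, Mir29a, and Mir3587. miR-29a-3p, from the nearest gene on that side with any count, was lower in the Na2SeO3 group, at -1.70 on the log2 scale (adjusted p = 3.84e-05, edgeR). miR-129-1-3p fell by 0.77 on the log2 scale (adjusted p = 0.00612) and miR-129-5p fell by 0.44 (adjusted p = 0.0356), though either can also come from a second gene. miR-592 was counted 17 to 60 times per library and did not pass, at 0.38 (adjusted p = 0.302, edgeR). miR-489-5p had at most 1 count, and miR-489-3p, miR-3556a, and miR-3587 had 0 in every library.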

How the data were processed

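Small RNA libraries of lens capsules from 3 control and 3 Na2SeO3 rats were compared. Per the study's methods, the authors used Cutadapt and Fqtrim for trimming, FastQC for quality, and miRDeep with Ensembl's rat genome for mapping. They deposited unnormalized read counts per miRNA name. HISAT2 is also named in the submitters' processing notes. Versions and the genome build are not given in the sources used here. The counts, between 663096 and 2829903 per library, were filtered with filterByExpr at a minimum count of 10, scaled with TMM, and tested with edgeR's quasi-likelihood test over 341 names with Benjamini-Hochberg adjustment. Each standard error was the log2 fold change over the root of F. For proportions within the cluster, the counts of the reference miRNA served as library size. Single values such as shares were put to exact permutation tests (two-sided). Log2 CPM used a prior count of 2. Every pair of libraries differed beyond sampling noise (chi-square per degree of freedom of at least 28.0).

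The procedure was tested on simulated counts of the comparison of Na2SeO3 with control. With 200 names changed by a log2 fold change of 2, and 350 to 357 names tested, at least 99.5% were recovered. With a change of 1 at least 62.5% were recovered. At most 2.93% and 3.85% of the calls were false, in the same order. The simulation gave all names the same dispersion and changed well-counted names evenly up and down. It scored adjusted p alone over the changed names that were tested, so the real counts can be harder. The members and lists were chosen with earlier results of these data known. Named miRNAs were the members, any sharing their seed, their neighbours in abundance, the 3 most correlated with each guide, the 3 nearest miRNA genes on each side, and those of the lists with high levels or past the thresholds. Others were named after their values were seen. Alternatives were other scalings, filters, and tests, a replicate block, and each library left out in turn. Mature and hairpin sequences are from RefSeq (GRCr8), where 296 of 326 rat names tested were matched. Software was edgeR 4.0.16, DESeq2 1.42.0, and limma 3.58.1 under R 4.3.3, with scipy 1.17.1. The mRNA libraries were not analysed here.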

Additional observations from a re-analysis of the deposited data

Results flagged for a closer look

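Reads were also counted under names of other species that resemble the cluster and are not members. The name cin-miR-96-3p, of a sea squirt, had 9 counts in Na2SeO3 library 2 and 0 in the other 5 libraries, a signal absent from the control samples and outside the comparison. The name mmu-miR-182-5p, of the mouse, had 21 counts in control library 1 and 0 in the others. Both names were singled out after their values were seen.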

How the results depend on the processing

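The directions of the guide miRNAs depended on the scale and, for miR-96-5p, on single libraries, while the result that no member passed the test held under every filter and left-out library tried, the replicate block, limma-voom, DESeq2 with its own size factors, and RLE and upper-quartile scaling. With library size only, miR-182 (0.41) and miR-183-5p (0.40) passed and miR-96-5p changed sign (0.20). With raw reads as library size, miR-182 (-0.90) and miR-183-5p (-0.95) changed sign and passed, miR-96-5p passed at -1.11, miR-183-3p (-0.68) changed sign without passing, the difference in share of the cluster changed sign (-2.35 percentage points), and 6 names were up-regulated and 176 down-regulated DEmiRNAs in place of 39 and 17. The split was 53 and 10 with library size only and 32 and 22 with upper-quartile scaling, and an adjusted p-value alone gave 71 and 47. With 1 library left out, the log2 fold change ran from 0.05 to 0.31 for miR-182, from 0.12 to 0.27 for miR-183-5p, from 0.09 to 0.82 for miR-183-3p, and from -0.20 to 0.20 for miR-96-5p, and the number of DEmiRNAs from 31 to 43 up-regulated and from 12 to 20 down-regulated. The log2 change of the ratio ran from -0.13 to 0.12 for miR-182 to miR-183-5p, from -0.48 to 0.021 for miR-96-5p to miR-183-5p, and from 0.12 to 0.47 for miR-182 to miR-96-5p. The difference in share stayed between 3.91 and 4.87 percentage points. The log2 arm ratio changed by -0.51 to 0.038 for miR-183 and by -0.67 to 0.17 for miR-96. miR-182 fell to its lowest value without control library 1, and miR-96-5p turned positive without control library 3 (0.20), Na2SeO3 library 1 (0.04), or Na2SeO3 library 3 (0.08). The miR-182 to miR-183-5p ratio turned negative without control library 1 or Na2SeO3 library 3 (-0.04). The miR-96-5p to miR-183-5p ratio turned positive without control library 3, and the miR-183 arm ratio without Na2SeO3 library 3. Same-numbered libraries come from different rats, and their deviations correlated across names at -0.17, -0.18, and -0.26. With so few libraries, these correlations cannot settle whether the animals were paired, as the study's discussion calls them. With the replicate block 49 names were DEmiRNAs, miR-182 was at 0.22, miR-183-5p at 0.21, and miR-96-5p at -0.01, and none passed, nor did miR-99a-5p (adjusted p = 0.0607) or miR-26a-5p (0.127, edgeR). The causes of these shifts were not tested. Depth limits the opposite arms, of which miR-96-3p could be tested only without a filter (-0.13, standard error 0.78).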
